A study of Mus musculus with 3 samples.

Results

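The genes described here are 46 type 1 diabetes candidates outside the major histocompatibility complex (MHC): mouse counterparts of genes at human risk loci, and classic candidates of the mouse Idd (insulin-dependent diabetes) regions. They were picked by gene symbol, and each matched 1 row of a table of 24063 genes. The candidates were described as lying outside chromosome 17, but the table places 2 of them, Tagap (chr17:7926000-7934897) and Ubash3a (chr17:31208066-31242403), on that chromosome, before its first H2 gene at base 33974659. Their expression was counted by RNA-Seq in untreated mouse blastocysts, in 1 library of the C57BL/6 strain (B6) and 2 libraries of the NOD strain (NOD 1 and NOD 2). NOD mice are inbred and develop spontaneous autoimmune diabetes, and B6 mice do not. The labels give whole blastocysts as the material, whereas the study's methods describe single inner cell masses. The age of the embryos and the number of mothers are not given in the sources used here, so the spread between the NOD libraries may be technical.

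Type 1 diabetes is the loss of the insulin-producing beta cells of the pancreas to T cells. Most candidate genes outside the MHC act in T cells, in antigen-presenting cells or in the signalling of interleukin-2, and a few act in the beta cell itself. The blastocyst is the embryo just before implantation, made of an inner cell mass and an outer trophectoderm, and it holds neither lymphocytes nor a pancreas.

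The libraries held 12505685 counts (B6), 33891715 counts (NOD 1) and 36171013 counts (NOD 2). A count of 0 allowed a level of up to 0.220 CPM in B6 (CPM are counts scaled to a common library size, here with TMM factors), 0.0908 CPM in NOD 1 and 0.0882 CPM in NOD 2, where the floor of 3 counts per library covers counting error only. Trophectoderm markers summed to 3294, 3185 and 2670 CPM in B6, NOD 1 and NOD 2, and inner cell mass markers to 1130, 973 and 1198 CPM, so markers of both tissues were present in each library. The trophectoderm sums include Dppa1, at 209 CPM in B6 and 1405 and 1034 CPM in NOD, and 7 of the 9 trophectoderm markers tested were lower in both NOD libraries, with a median log2 difference of -0.82. Of the 10 inner cell mass markers, 5 were higher and 5 lower in both NOD libraries, with 2 called higher (Tdgf1 and Zfp42) and 1 lower (Sox2). Of 8 primitive endoderm markers, 3 were higher and 2 lower in both NOD libraries, with 1 called higher and 1 lower. Of 19 leukocyte markers, 8, 10 and 11 had a count in B6, NOD 1 and NOD 2, with summed levels of 83.8, 99.0 and 95.5 CPM, while Ptprc, Lyz2, Fcer1g, Cd79a and Emr1 were at 0 in every library. None of the 9 leukocyte markers that could be tested was called different between the strains. Of 10 beta cell markers, only Chga and Pcsk2 had a count. With bulk libraries, fewer cells of a type and less RNA per cell cannot be told apart.

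At least 1 count was found for 23 of the 46 candidates in B6 (50.0%), 27 in NOD 1 (58.7%) and 25 in NOD 2 (54.3%), beside 57.3%, 61.4% and 62.8% of all genes. After the NOD libraries were thinned to the depth of B6, 24 candidates were counted in each of them (52.2%, beside 59.3% of all genes in NOD 1 and 60.6% in NOD 2). Counts were present in every library for 18 candidates (39.1%, beside 51.3% of all genes) and in no library for 13 (28.3%, beside 30.3% of all genes). The 13 were the cytokines Il21 and Il27, the receptors Il2ra, Ctla4, Icos, Cd226 and Cd69, the T cell kinase Prkcq, the transcription factors Ikzf1, Glis3 and Stat4, and Gsdmc and Fut2. The remaining candidates were counted in some libraries only. Cd28, Rasgrp1 and Ifih1 were counted in B6 alone (6.52%, beside 2.90% of all genes). Il2, Il10, Fcgr1 and Tagap were counted in both NOD libraries and not in B6 (8.70%, beside 6.03% of all genes). Of the others, 5 were counted in NOD 1 alone and 1 in NOD 2 alone (13.04% together, beside 6.31% of all genes), and Ptpn22 and Ikzf4 in B6 and NOD 2 (4.35% with B6 and only 1 NOD library, beside 3.08% of all genes).

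**Figure D1:**
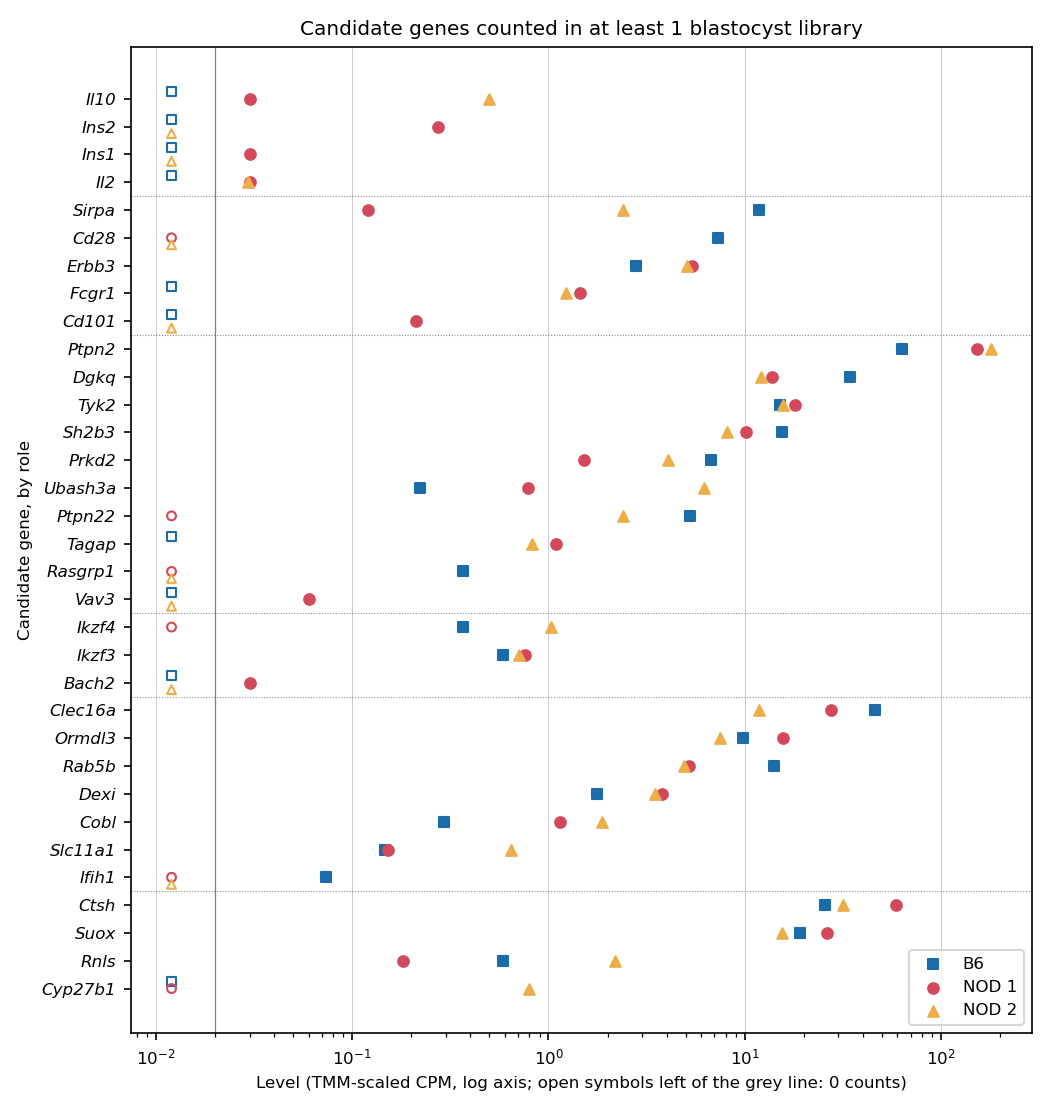
Level of each candidate gene in CPM (log axis) in the B6 library and the 2 NOD libraries, with genes grouped by role and libraries at 0 counts drawn as open symbols at the left. Ptpn2 is highest in CPM, which are not scaled for transcript length, at 152 and 179.8 CPM in NOD. The 13 genes without a count in any library are not drawn.

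Counts high enough for a test of NOD against B6 were found for 25 candidates (54.3%, beside 60.1% of all genes). The filter lets a gene in when 1 library alone is high enough, and 7 of the 25 had 0 counts in at least 1 library. Calls required an adjusted p under 0.05 over 14456 genes and at least a 2-fold change in edgeR's quasi-likelihood test. With 1 B6 library the spread came from the NOD libraries alone, and B6 was assumed to vary alike. A strain difference and an unusual B6 library therefore cannot be told apart. Across all genes tested 17.7% were called, 10.3% as higher in NOD and 7.39% as lower, so that 58.1% of the calls were higher, against 47.8% when libraries were scaled by their total counts alone. Of the 25 candidates tested, 1 was called higher in NOD, Ptpn2, and 1 lower, Cd28. An unadjusted p under 0.05 was found for 5 of them (Cd28, Ptpn2, Dgkq, Fcgr1 and Tagap), beside 39.9% of all genes tested. Both NOD libraries lay above B6 for 12 of the 25 (45.3% of all genes tested) and both below it for 8 (39.4% of all genes tested). The median log2 difference was 0.48 for the candidates tested and 0.26 for all genes tested, or 0.31 and 0.23 with genes at 0 in a whole strain set to their bound against the floor.

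**Figure D2:**
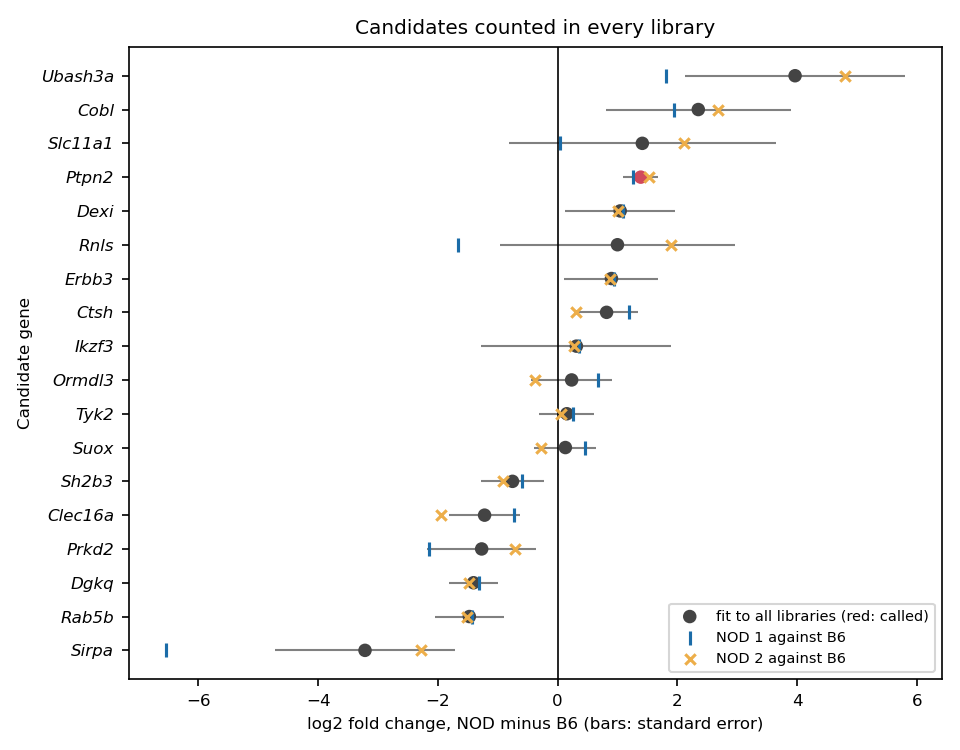
Log2 fold change of NOD against B6 for the 18 candidates counted in every library, with the standard error of the edgeR fit as bars and each NOD library against B6 as small marks. Ptpn2, the called gene (red), lies at 1.39 with its marks close together, and the marks of Sirpa, at -6.55 and -2.28, lie far apart.

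Promoters are shown to set the candidates' counts beside the CG content of the promoter, a feature that broadly separates broadly used promoters from tissue-restricted ones. RefSeq promoters (GRCm38.p6) were found for 30 of the 46. In the 250 bases before the start site, the 16 tested candidates among them held a median of 13.5 CG dinucleotides, with a range from 1 to 36, and the 14 that were not tested held a median of 7, with a range from 0 to 44. Over all genes the medians were 15 for 10705 genes tested and 3 for 6109 not tested. At least 1 CG (read on both strands alike) stood in 93.2% of all promoters of this length. The following stretches run 5′ to 3′ on the gene's strand, with each CG in capitals. Suox (chr10:128673919-128674168, minus strand) was CG-rich and counted in every library, Ikzf1 (chr11:11685675-11685924, plus strand) was CG-rich and counted in none, and Ptpn22 (chr3:103860027-103860276, plus strand) and Fcgr1 (chr3:96293970-96294219, minus strand) were CG-poor and counted.
Suox: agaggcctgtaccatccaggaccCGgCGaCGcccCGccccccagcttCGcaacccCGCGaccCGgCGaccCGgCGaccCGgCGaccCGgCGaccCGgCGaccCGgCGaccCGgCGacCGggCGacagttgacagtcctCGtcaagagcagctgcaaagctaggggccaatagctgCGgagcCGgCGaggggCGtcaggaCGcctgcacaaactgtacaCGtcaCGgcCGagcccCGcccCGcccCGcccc
Ikzf1: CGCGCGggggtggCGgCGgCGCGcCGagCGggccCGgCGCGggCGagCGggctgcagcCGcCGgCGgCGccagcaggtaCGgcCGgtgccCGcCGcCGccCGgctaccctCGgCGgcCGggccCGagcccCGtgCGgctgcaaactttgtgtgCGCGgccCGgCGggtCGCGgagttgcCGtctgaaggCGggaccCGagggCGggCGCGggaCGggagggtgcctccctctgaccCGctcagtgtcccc
Ptpn22: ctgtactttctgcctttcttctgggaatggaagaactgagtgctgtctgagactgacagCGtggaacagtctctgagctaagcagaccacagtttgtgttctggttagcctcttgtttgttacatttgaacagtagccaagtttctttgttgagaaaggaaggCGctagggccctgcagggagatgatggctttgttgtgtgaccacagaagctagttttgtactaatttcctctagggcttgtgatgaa
Fcgr1: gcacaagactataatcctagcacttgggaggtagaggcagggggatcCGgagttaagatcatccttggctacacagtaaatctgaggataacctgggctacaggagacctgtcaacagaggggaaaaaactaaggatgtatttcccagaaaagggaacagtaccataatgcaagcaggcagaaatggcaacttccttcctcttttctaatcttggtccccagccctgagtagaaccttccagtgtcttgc

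The Suox stretch held 35 CG and that of Ikzf1 44, whereas Ptpn22 held 2 and Fcgr1 1. Prkcq, with no count in any library, held 30, and Glis3, likewise without a count, held 24. Ubash3a, counted in all libraries, held 5. In the GENCODE annotation, the spans of Ikzf1 and Ptpn22 start further upstream, at bases 11685003 and 103859795, so these stretches lie inside them. The span of Suox reaches base 128674073 and covers part of its stretch.

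**Figure D3:**
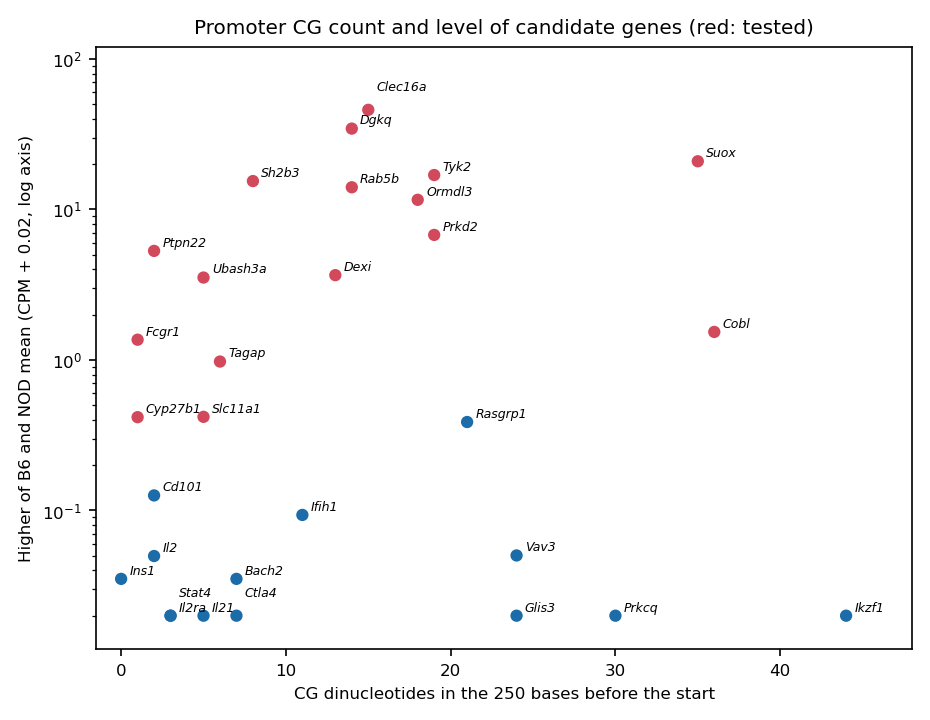
CG dinucleotides in the 250 bases before the start site against the higher of the B6 level and the NOD mean in CPM (log axis, 0.02 added) for the 30 candidates with a RefSeq promoter. Ikzf1, with 44, lies at the bottom with no counts, and Fcgr1, with 1, lies above 1 CPM.

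Among the 6 cytokine and insulin genes, levels were at the edge of detection. Il2, the T cell growth factor, had 1 count in each NOD library and 0 in B6. Il10, an anti-inflammatory cytokine, had 0, 1 and 17 counts in B6, NOD 1 and NOD 2. Ins2, 1 of the mouse insulin genes, had 0, 9 and 0 counts, and Ins1 had 0, 1 and 0. The counts of Il10 and Ins2 thus came almost wholly from a single NOD library, a different one for each gene. Il10 was the only gene of the group with enough counts for a test and was not called (edgeR adjusted p = 0.333).

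Of 10 surface receptors, 5 had no count in any library. Cd28 (NM_007642, chr1:60746388-60773359), the main costimulatory receptor of T cells, had 100 counts in B6 (7.34 CPM) and 0 in both NOD libraries. It was at least 80.9-fold lower in NOD against the floor per library, and it was called lower (edgeR adjusted p = 0.0323, from 6.52e-05 to 0.153 over the alternatives). The call rests on a single B6 library, and it was lost with limma-voom (adjusted p = 0.153) and without the filter on low counts (adjusted p = 0.0772). Its neighbours on chromosome 1, Ctla4 and Icos, which encode an inhibitory and a costimulatory receptor of the same family, had no counts. The T cell markers Cd3d (0, 11 and 28 counts in B6, NOD 1 and NOD 2) and Cd3g (0, 25 and 78 counts) were not counted in the library that held Cd28, and Cd3e had 1 count there. Over the whole list, 6 of the 9 leukocyte markers tested were higher in both NOD libraries and 1 was lower, with a median log2 difference of 3.005, or 1.80 with genes at 0 in a strain set to their bound. The marker that was lower in both was Laptm5, with 835, 720 and 772 counts, or 61.3, 21.8 and 22.7 CPM, without a call (edgeR adjusted p = 0.0516). Itgb2, too low to test, had 7 counts in B6 and 0 in NOD. Whether other cells had a part in the Cd28 counts was not tested.

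Fcgr1 (chr3:96282909-96293969), the high-affinity receptor for IgG on myeloid cells, had 48 counts in NOD 1, 42 in NOD 2 and 0 in B6. Both NOD libraries lay above B6, at 1.34 ± 0.154 CPM (SD, n = 2), at least 6.10-fold higher, but the gene was not called (edgeR adjusted p = 0.0903). Sirpa, the inhibitory receptor for Cd47, had 161, 4 and 82 counts in B6, NOD 1 and NOD 2, or 11.8, 0.121 and 2.41 CPM. Both NOD libraries lay below B6 yet far apart from each other, and Sirpa was not called (log2 difference -3.22, SE 1.51, edgeR adjusted p = 0.181). Erbb3, a receptor of the epidermal growth factor family, had 38, 177 and 172 counts, with levels of 2.79, 5.36 and 5.05 CPM. The NOD libraries were close together and above B6, without a call (log2 difference 0.90, SE 0.79, edgeR adjusted p = 0.420). Cd101, an inhibitory receptor and a candidate of an Idd region on chromosome 3, had 7 counts, all in NOD 1.

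The 11 phosphatases, kinases and signal adaptors held the largest summed CPM of any role, at 141, 197 and 229 in B6, NOD 1 and NOD 2. CPM are not scaled for transcript length, and per kb Ctsh, not Ptpn2, was the highest candidate in both strains. Ptpn2 (NM_001127177, chr18:67665501-67724621), a tyrosine phosphatase that restrains JAK and STAT signalling, had 863, 5018 and 6119 counts in B6, NOD 1 and NOD 2. Its levels were 63.3, 152 and 179.8 CPM, so both NOD libraries lay well above B6 and near each other. Ptpn2 was called higher in NOD, with a ratio of 2.62 (log2 difference 1.39, SE 0.30, edgeR adjusted p = 0.0426, from 8.07e-04 to 0.103 over the alternatives). The difference stayed at 1.52 with NOD 2 alone and 1.26 with NOD 1 alone. The call was lost with total counts as the scaling (1.20, adjusted p = 0.0558), with upper-quartile scaling (adjusted p = 0.0560), with limma-voom (adjusted p = 0.103) and without the filter (adjusted p = 0.0772).

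Dgkq (chr5:108647044-108660769), a diacylglycerol kinase, had 469, 457 and 414 counts in B6, NOD 1 and NOD 2, or 34.4, 13.8 and 12.2 CPM. Both NOD libraries lay below B6 and close together, but Dgkq was not called (log2 difference -1.40, SE 0.41, edgeR adjusted p = 0.0752). Among the alternatives it was called only when genes under 10 CPM were left out (edgeR adjusted p = 0.0304). Its exons overlap Idua and Tmem175 on the other strand, and 41.9% of its stretches of 50 bases are found in the exons of other genes too, so counts made without strand cannot be assigned to Dgkq alone.

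Ptpn22, the lymphoid phosphatase at one of the strongest human loci outside the MHC, had 72 counts in B6 and 82 in NOD 2, and none in NOD 1. The NOD libraries disagreed, and no difference between strains was called (log2 difference -2.13, SE 2.21, edgeR adjusted p = 0.494). Ubash3a, a suppressor of T cell receptor signalling, had 3, 26 and 212 counts, or 0.220, 0.787 and 6.23 CPM. Both NOD libraries were above B6, but NOD 2 was 7.92 times NOD 1, and no call was made (edgeR adjusted p = 0.177). Its ratio of NOD to B6 was 16.1, with counting error alone allowing 5.45 to 78.7. Tagap, a GTPase-activating protein of activated T cells, had 0, 36 and 28 counts, at least 4.34-fold higher in NOD and not called (edgeR adjusted p = 0.115). Other genes hold 57.5% of its stretches of 50 bases, so its counts are uncertain.

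Tyk2, a kinase of the interferon and interleukin-12 receptors, had 207, 598 and 535 counts, or 15.2, 18.1 and 15.7 CPM, a log2 difference of 0.15 (SE 0.46, edgeR adjusted p = 0.816) that became -0.030 with total counts as the scaling. The levels in the strains lay within the error of the fit. Sh2b3, an adaptor that dampens cytokine signalling, had 210, 337 and 275 counts, or 15.4, 10.2 and 8.08 CPM. Both NOD libraries were below B6, without a call (log2 difference -0.75, SE 0.52, edgeR adjusted p = 0.325). Prkd2, a kinase downstream of diacylglycerol, had 92, 50 and 139 counts, or 6.75, 1.51 and 4.09 CPM, and was not called (edgeR adjusted p = 0.340). Rasgrp1, an exchange factor of T cell receptor signalling, had 5 counts in B6 and 0 in NOD, and Vav3, an exchange factor, had 2 counts, both in NOD 1.

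Transcription factors were nearly silent, with summed levels of 0.954, 0.787 and 1.73 CPM over 6 genes. Ikzf3, a lymphoid zinc finger factor, had 8, 25 and 24 counts in B6, NOD 1 and NOD 2. Its ratio of NOD to B6 was 1.24 (95% interval 0.584 to 3.04 from counting error alone), which spans equal levels (edgeR adjusted p = 0.892). Ikzf4, a factor of regulatory T cells, had 5, 0 and 35 counts, so the NOD libraries fell on either side of B6, and its log2 difference of 0.48 (edgeR adjusted p = 0.912) turned to -1.64 with limma-voom. Bach2, a repressor in lymphocytes, had 1 count, in NOD 1.

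The 8 innate sensor, membrane and endoplasmic reticulum genes summed to 72.0, 53.5 and 30.2 CPM in B6, NOD 1 and NOD 2. Clec16a (chr16:10545339-10744878), a regulator of mitophagy and endosomes, had 625, 911 and 402 counts, or 45.9, 27.6 and 11.8 CPM. Both NOD libraries were below B6, but they differed 2.33-fold from each other, and Clec16a was not called (log2 difference -1.22, SE 0.59, edgeR adjusted p = 0.190). Dexi, its neighbour and a candidate at the same human locus, had 24, 125 and 119 counts, or 1.76, 3.78 and 3.50 CPM, without a call (edgeR adjusted p = 0.423). Both NOD libraries were above B6 for Dexi and below it for Clec16a, with neither called. The exons of Dexi overlap Ciita on the other strand, but 0.0% of the stretches of 50 bases in its transcript are found in other genes.

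Rab5b, a GTPase of early endosomes, had 191, 172 and 166 counts, or 14.0, 5.20 and 4.88 CPM. The NOD libraries were close together and below B6, without a call (log2 difference -1.47, SE 0.57, edgeR adjusted p = 0.128). Ormdl3, a regulator of sphingolipid synthesis in the endoplasmic reticulum, had 134, 518 and 254 counts, or 9.83, 15.7 and 7.46 CPM, so B6 lay between the NOD libraries (edgeR adjusted p = 0.809), and its log2 difference of 0.23 was -0.38 with NOD 2 alone. Cobl, an actin nucleator, had 4, 38 and 64 counts, without a call (edgeR adjusted p = 0.304). Its ratio was 5.18 (95% interval 1.96 to 19.4 from counting error alone, without the spread between libraries). Slc11a1, a metal transporter of phagosomes and a candidate of an Idd region on chromosome 1, had 2, 5 and 22 counts, or 0.147, 0.151 and 0.647 CPM. Its ratio of 2.74 (95% interval 0.689 to 23.8 from counting error alone) was not called (edgeR adjusted p = 0.652). NOD 1 was close to B6 and NOD 2 above it, with log2 differences of 0.042 for NOD 1 alone and 2.11 for NOD 2 alone. Ifih1, a sensor of viral RNA, had 1 count, in B6.

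The 5 enzymes summed to 45.4, 85.4 and 50.0 CPM in B6, NOD 1 and NOD 2. Ctsh, a lysosomal cysteine protease that is also made in beta cells, had 350, 1951 and 1073 counts in B6, NOD 1 and NOD 2, or 25.7, 59.0 and 31.5 CPM. Both NOD libraries lay above B6, without a call (log2 difference 0.82, SE 0.52, edgeR adjusted p = 0.293). Suox, the mitochondrial sulfite oxidase, had 260, 867 and 528 counts, or 19.1, 26.2 and 15.5 CPM, with B6 between the NOD libraries (log2 difference 0.13, SE 0.52, edgeR adjusted p = 0.862; -0.050 with total counts as the scaling). Rnls, a flavin oxidase, had 8, 6 and 74 counts, and its NOD levels differed 11.98-fold, on either side of B6 (edgeR adjusted p = 0.719). Cyp27b1, the enzyme that activates vitamin D, had 27 counts, all in NOD 2 (edgeR adjusted p = 0.379).

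The spread between the NOD libraries was wide for these genes. Of 21 tested candidates with counts in both NOD libraries, 8 differed at least 2-fold between them (38.1%), with a median absolute log2 difference of 0.71. Across 13352 genes the share was 21.7% and the median 0.43. By level, 2 of 4 candidates with a NOD mean under 1 CPM differed so (50.0%), beside 59.8% of all genes, and 4 of 10 from 1 to 10 CPM (40.0%), beside 38.8% of all genes. At 10 CPM or more it was 2 of 7 candidates (28.6%), Clec16a at 2.33-fold and Ormdl3 at 2.10-fold, beside 7.05% of all genes. These candidates are few, and the differences between the shares were not tested.

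**Figure D4:**
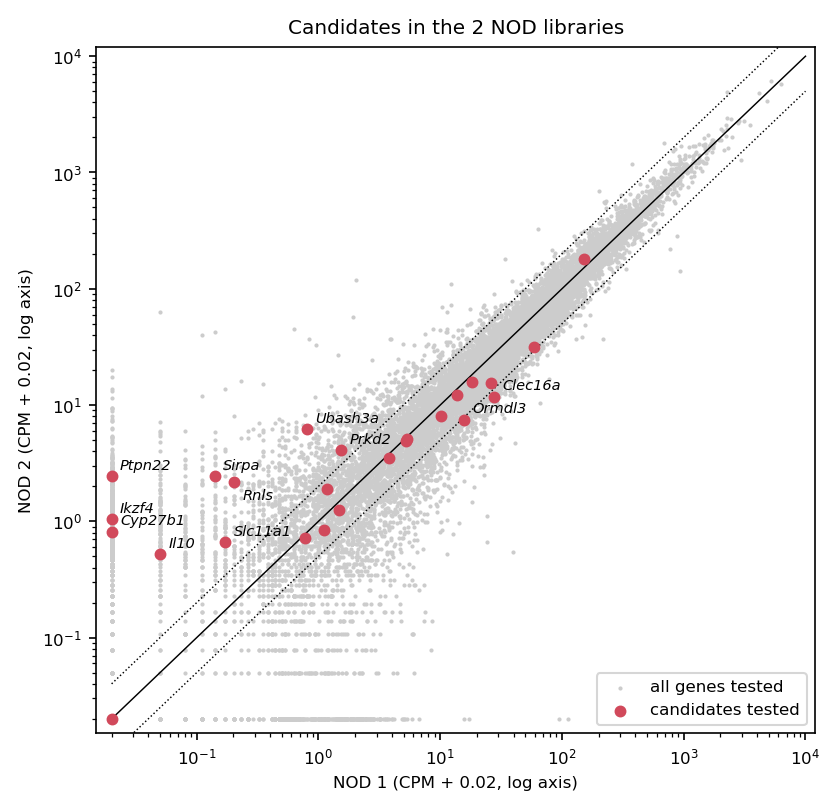
Level of each candidate in NOD 1 against NOD 2 in CPM (log axes, 0.02 added), with all genes tested in grey, a line at equal levels and dotted lines at 2-fold. Sirpa, Rnls and Ubash3a lie beyond the dotted line toward NOD 2, and Clec16a and Ormdl3 beyond the other.

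Erbb3, Ikzf4, Suox and Rab5b lie together on chromosome 10, from base 128569368 to base 128696268, and are all candidates at 1 human locus. Their log2 differences were 0.90, 0.48, 0.13 and -1.47 in this order along the chromosome, and none was called. Of 23 other tested genes near them, 2 were called higher in NOD (Ormdl2 and Cd63) and 3 lower (Dgka, Rpl41 and Rps26), beside 17.7% of all genes called, with a median log2 difference of -0.23. The differences of Ikzf4 and Suox changed sign under an alternative, as given above, and reads of Rpl41 and Rps26, ribosomal protein genes with many pseudogenes, may be shared.

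**Figure D5:**
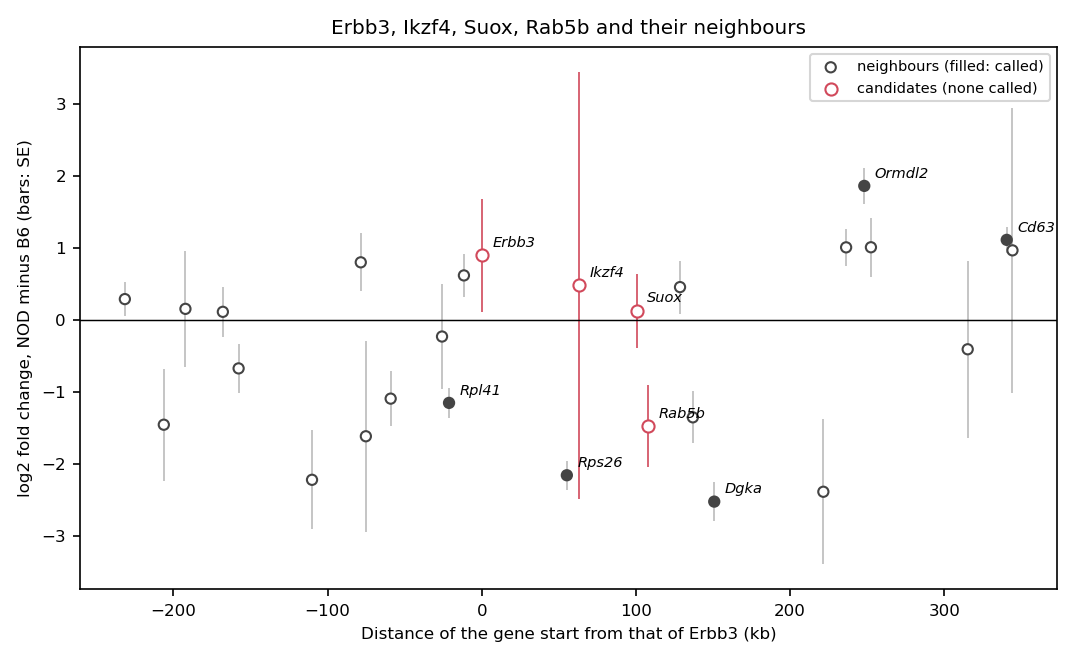
Log2 fold change of NOD against B6 for the tested genes around Erbb3, Ikzf4, Suox and Rab5b, by distance from the start of Erbb3 in kb, with standard errors as bars. Values lie on both sides of 0, with Dgka at -2.52.

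Partners of the candidates in the same pathways were taken from lists. These were chosen with earlier results of these data known, so the shares called are a description only. Beside their counts, 10.3% of all genes tested were called higher and 7.39% lower, and with limma-voom or without the low-count filter 0 genes of these lists were called. Of 21 tested genes of cytokine receptors, JAK kinases and STAT factors, 5 were called higher in NOD and 2 lower, with a median log2 difference of -0.04. Il2rg, the shared receptor chain of interleukin-2, had 51, 1929 and 2076 counts in B6, NOD 1 and NOD 2 and was called higher (log2 difference 3.99, edgeR adjusted p = 0.0212). Jak3, the kinase bound to that chain, had 141, 21 and 22 counts and was called lower (edgeR adjusted p = 0.0380). The receptor chain and its kinase were thus called in opposite directions. Socs1, Ptpn6 and Il10rb were also called higher, and Ifnar2 was called lower. Of 28 tested genes of antigen receptor signalling and costimulation, 6 were called higher and 1 lower, with a median log2 difference of 0.79. Cblb, a ubiquitin ligase that restrains T cell activation, had 5, 417 and 376 counts and was called higher (log2 difference 4.99, edgeR adjusted p = 0.0290). Cd86, a ligand of Cd28, had 1, 249 and 217 counts and was called higher in NOD (edgeR adjusted p = 0.0327), opposite to Cd28. Zap70, a kinase of the T cell receptor, had 442, 214 and 146 counts and was called lower (log2 difference -2.59, edgeR adjusted p = 0.0372). Ptpn18 and Fyn were also called higher.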

How the data were processed

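The authors amplified cDNA from low-input material with the SMART-Seq v4 kit, sequenced it on 1 end with a read length of 50 bases, and mapped the reads to mm10. HOMER then counted exonic reads per RefSeq gene without regard to strand, and the deposited values are these raw counts. The labels name STAR 2.2.0c, and the study's methods another version. Samples were grouped by the strain in the labels.

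The member genes and lists were chosen with earlier results of these data known. Genes were kept by filterByExpr (minimum count 10), scaled by TMM and tested with edgeR 4.0.16 in R 4.3.3 (quasi-likelihood test, trended dispersion), with Benjamini-Hochberg adjustment over 14456 genes. The fit had 1 residual degree of freedom, which came from the NOD libraries alone. A fold change is NOD minus B6 on the log2 scale with a prior count of 0.125. Ratios on low counts have exact Clopper-Pearson 95% intervals. Intervals and floors cover counting error only. In data simulated with B6 set to vary like NOD, the fit left most changed genes uncalled, and its few calls were changed genes. The simulation cannot show that calls in these data are true, because the spread of B6 is not known. DESeq2 1.42.0, limma 3.58.1, other scalings and other filters were the alternatives, and a default dispersion was added after seeing the data. Every member is reported, and of each partner and relative list at most the 6 called genes with the lowest adjusted p, except 1 that is not reported here. Promoters came from RefSeq (GRCm38.p6), and overlaps from GENCODE on GRCm38.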

Additional observations from a re-analysis of the deposited data

How the results depend on the processing

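Of 235 values of the tested candidates' differences under the alternatives, 211 kept their direction and, where tested, their side of the threshold, 10 with a NOD library left out, and so no test, changed in value (Cd28 by little, Cyp27b1 to 0 for want of counts), 6 lost a call, 1 gained one and 7 turned. Tyk2 (-0.030) and Suox (-0.050) turned with total counts as the scaling, and Ikzf4 (-1.64) with limma-voom. With NOD 2 alone Ormdl3 (-0.38) and Suox (-0.28) turned, and with NOD 1 alone Rnls (-1.66) and Ikzf4, which had 0 counts there. The count of candidates called higher was 0 with limma-voom, without the low-count filter, with total counts and with upper-quartile scaling, and the count called lower was 0 with limma-voom and without the filter. With limma-voom 4 candidates, and without the filter 5, had an unadjusted p under 0.05, and of all genes 3924 and 5568 did, with 0 called by either. DESeq2's Wald test called 4153 genes. The count of partners and relatives called higher, 20, became 13 with the default dispersion, and 0 with limma-voom or without the filter. The count called lower, 6, became 13 with DESeq2's Wald test, 12 with the filter at 10 CPM, 3 with upper-quartile scaling, and 0 with limma-voom or without the filter. The 5 chromosome 10 neighbours called became 8 with the filter at 10 CPM, and 0 with limma-voom or without the filter. With at least 10 counts required, 15 candidates were detected in B6 (32.6%, beside 48.7% of all genes), 17 in NOD 1 (37.0%, beside 54.9%) and 24 in NOD 2 (52.2%, beside 56.2%). Total counts as the scaling moved the median log2 difference of all genes from 0.26 to 0.07. The causes were not tested. Leaving out a NOD library gave values with no test, and B6 had a single library that could not be left out. No paired analysis was possible because B6 had 1 library.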

Other observations

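Paralogs of the candidates, and genes of like name or function such as other lysosomal peptidases, were taken from a list and were tested in the same way. This list was chosen with earlier results of these data known, so its shares are a description only. Of 37 such genes tested, 9 were called higher in NOD and 3 lower, with a median log2 difference of 1.26, beside 10.3% higher and 7.39% lower among all genes tested. Rab5a, which shares the early endosome with Rab5b, had 99, 4228 and 3844 counts in B6, NOD 1 and NOD 2 and was called higher (log2 difference 4.05, edgeR adjusted p = 0.0196), while Rab5b was lower in both NOD libraries and not called. Ctsz, a lysosomal cysteine protease like Ctsh, had 317, 13351 and 18342 counts and was called higher (log2 difference 4.34, edgeR adjusted p = 0.0196). Ctsb, a further cysteine protease, and Ctsa, a serine carboxypeptidase that is no paralog of Ctsh, were also called higher. Ormdl2, a paralog of Ormdl3, had 1378, 12754 and 11942 counts and was called higher (log2 difference 1.87, edgeR adjusted p = 0.0232). Dgka, a paralog of Dgkq, had 2821, 1201 and 1217 counts and was called lower (log2 difference -2.52, edgeR adjusted p = 0.0203). Ormdl2 and Dgka were also counted among the called neighbours on chromosome 10.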
